A study of Mus musculus with 9 samples.

Results

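The dual-specificity MAP kinase phosphatases are enzymes that switch off the MAP kinases ERK, JNK and p38. They were followed here in primary peritubular myoid cells, the contractile cells that lie around the seminiferous tubules of the testis. The members were chosen by name as Dusp1, Dusp2, Dusp4, Dusp5, Dusp6, Dusp7, Dusp8, Dusp10, Dusp14 and Dusp16, which makes 10 of the 20717 genes listed in the deposited table. All 10 had values in the 9 libraries. The filter on low values, at least 1 FPKM (fragments counted for a transcript, scaled by its length and by the mapped total of its library) in at least 3 libraries, was passed by 9 of them and by 11460 genes in all. Dusp2 was the exception.

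The cells came from C57BL/6J mice and were kept in primary culture at 37 °C, and age and number of the animals are not stated in the sources used. In 1 group the dishes stood at 42 °C in a water bath for 30 min and were collected 1 h after their return to the incubator. A further group had the same heat and was collected after 6 h, and control cells had no heat. Each group holds 3 libraries, whose labels carry replicate numbers but name no animal or culture, so the p-values measure only how these libraries spread, and that spread may be technical.

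MAP kinases are activated when both a threonine and a tyrosine in their activation loop are phosphorylated, and the phosphatases described here can remove both phosphates. Most have a docking domain that sets which MAP kinase they bind. Dusp1, Dusp2, Dusp4 and Dusp5 encode nuclear enzymes known as inducible genes, Dusp6 and Dusp7 encode cytoplasmic enzymes selective for ERK, Dusp8, Dusp10 and Dusp16 encode enzymes that act mainly on JNK and p38, and Dusp14 encodes a small atypical enzyme with no docking domain. Several of these genes are transcribed in response to the same MAP kinase signals that their products end, and JNK and p38 are known as stress-activated kinases that respond to heat.

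Depth was estimated from the lowest FPKM values at between 19060000 and 20000000 fragments per library, a ratio of 1.05 between the deepest and the shallowest. The heat response was present in every heated library at 1 h: Hspa1a, an inducible HSP70 chaperone, averaged 1511 ± 283 FPKM at 1 h, 38.9 ± 11.2 FPKM at 6 h and 9.81 ± 2.71 FPKM in control (SD, n = 3 each). Of the 7 myoid markers, all were detected, and their summed level lay between 3814 and 3921 FPKM at 1 h, 3134 and 4685 FPKM at 6 h, and 3868 and 4960 FPKM in control. Markers of other testicular cell types were detected as well, but 2 of 9 Sertoli and 3 of 8 Leydig markers stayed below 1 FPKM in every library. Whether such cells were present was not tested. The 9 Sertoli markers summed to between 256.3 and 576.1 FPKM at 1 h, 399.5 and 530.3 FPKM at 6 h, and 297.2 and 3157 FPKM in control. The highest sum was that of control replicate 3, where Clu had 2700 FPKM. Cldn11, Wt1, Sox9 and Inha were also highest in that library, with 236.8, 53.8, 27.7 and 56.8 FPKM. Gata4 was not, with 79.9 FPKM there and 83.4 FPKM in 6 h replicate 1. Control replicate 3 is 1 of the 3 control libraries in each comparison with control. The 8 Leydig markers summed to between 904.6 and 2070 FPKM at 1 h, 1447 and 2089 FPKM at 6 h, and 965.6 and 2184 FPKM in control. Their part in the results was not tested, and in such bulk libraries fewer cells of a type and less RNA per cell cannot be told apart.

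Between heat and control the phosphatase genes were higher at 1 h in most cases, but none passed the test. Of the 9 members tested, 0 were called at an adjusted p below 0.05 (limma on log2(FPKM + 1), Benjamini-Hochberg over all genes tested), where 18 of 11460 genes were called, or 0.157%. At an unadjusted p below 0.05 there were 3 members higher and 0 lower, against 316 higher and 922 lower of the 11460 genes. The 3 libraries at 1 h lay above all 3 control libraries for Dusp5, Dusp8, Dusp10 and Dusp16, 4 of the 9 members, where 4.49% of all genes did so, and no member lay wholly below control, where 21.4% of all genes did. The median log2 difference of the 9 members was 0.72, against -0.168 for all genes tested, a shift of all genes that median-of-ratios scaling moved to -0.014. At 6 h no member was called against control, and 1 member, Dusp8, was called as lower at 6 h than at 1 h.

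**Figure D1:**
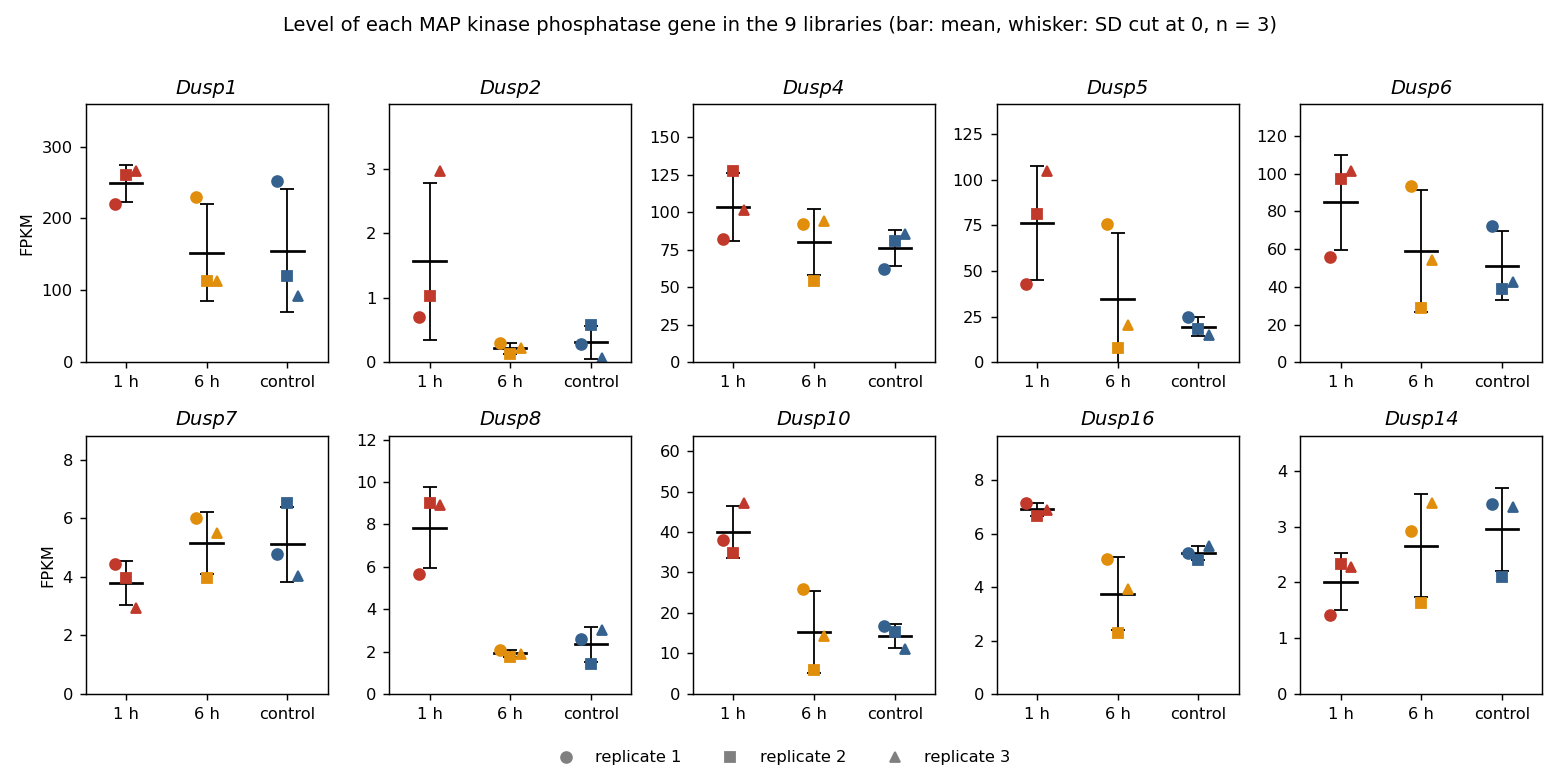
FPKM of each of the 10 phosphatase genes in the 9 libraries (1 h after heat, 6 h after heat and control, 3 points each; bars are means and whiskers SD, cut at 0 for Dusp5 at 6 h). Dusp5, Dusp8, Dusp10 and Dusp16 at 1 h lie above every control library, and the square of the 6 h group, its replicate 2, is the lowest of its group in all 10 panels.

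Of the members that act on JNK and p38, Dusp8 was the one with a call. Dusp8 (NCBI gene 18218, mm10 chromosome 7, 142079487 to 142095284, minus strand) encodes a phosphatase with a preference for JNK and p38 and is known from brain and muscle. It had 5.64, 9.02 and 8.90 FPKM at 1 h, 2.09, 1.75 and 1.90 FPKM at 6 h, and 2.58, 1.42 and 3.02 FPKM in control. The lowest library at 1 h was thus above the highest of the other 6, and the 6 h values lay within the control range. Behind these values stood an estimated 527 to 839 fragments per library at 1 h, 167 to 191 at 6 h and 132 to 276 in control.

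Between 6 h and 1 h the log2 difference of Dusp8 was -1.58 (SE 0.235, 95% interval -2.11 to -1.05) with a limma adjusted p of 0.031, and its mean fell to 1.91 ± 0.17 FPKM at 6 h, against 7.85 ± 1.92 FPKM at 1 h (SD, n = 3). It was 1 of 32 genes called in that comparison, 0.279% of those tested, all of them lower at 6 h, and the 26th of all genes by p-value. Between 1 h and control its log2 difference was 1.41 (SE 0.235, 95% interval 0.89 to 1.94), a 3.36-fold ratio of means, with a limma adjusted p of 0.075. That comparison passed the threshold with median-of-ratios scaling (1.55, adjusted p 0.039) and with quantile normalization (1.54, adjusted p 0.025). Between 6 h and control its log2 difference was -0.17 (95% interval -0.70 to 0.36). A remaining difference above 0.36 on the log2(FPKM + 1) scale lies outside the interval, and this scale understates changes of low genes.

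The call of Dusp8 between 6 h and 1 h held under 11 of 20 alternative settings, and the direction under all 20. Among the others it was lost with the omission of 1 h replicate 2 (limma adjusted p 0.21), 1 h replicate 3 (0.16), 6 h replicate 2 (0.083), 6 h replicate 3 (0.15) or control replicate 1 (0.061), each of which also leaves fewer libraries in the fit, and with no filter on low values (0.093). Log2 differences over these alternatives ran between -1.95 and -1.48.

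The promoter of Dusp8 is shown because it is the gene with a call, beside that of Dusp16 from the same subgroup. Both are from RefSeq on GRCm38.p6, 250 bases before to 50 after the annotated start, minus strand, at chr7:142095235-142095534 for Dusp8 and chr6:134792579-134792878 for Dusp16. Capitals mark the cyclic AMP response element TGACGTCA, its shorter core TGACG and the heat shock element dyad GAANNTTC on either strand.
Dusp8: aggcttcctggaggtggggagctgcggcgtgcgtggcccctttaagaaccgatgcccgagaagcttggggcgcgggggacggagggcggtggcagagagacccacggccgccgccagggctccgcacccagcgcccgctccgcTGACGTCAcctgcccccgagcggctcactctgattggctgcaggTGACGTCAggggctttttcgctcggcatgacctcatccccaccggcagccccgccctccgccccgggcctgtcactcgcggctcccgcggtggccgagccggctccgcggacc
Dusp16: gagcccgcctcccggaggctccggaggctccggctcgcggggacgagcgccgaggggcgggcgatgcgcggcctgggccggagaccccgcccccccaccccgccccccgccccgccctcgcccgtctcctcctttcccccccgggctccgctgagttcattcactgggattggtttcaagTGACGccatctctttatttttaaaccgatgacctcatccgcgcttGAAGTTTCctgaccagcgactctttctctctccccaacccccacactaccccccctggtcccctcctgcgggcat

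Dusp8 holds TGACGTCA at -107 and -63, counted from the start site to the first base of the match. One or more copies stand in 1.79% of the 32851 promoters of that table and in 3.05% of the promoters of tested genes, and 13 promoters of the whole table hold 2 or more. In Dusp16 the dyad GAANNTTC begins at -25, a motif found in 7.86% of all promoters and 5.61% of those of tested genes, and TGACG at -70. The promoter of Dusp10 held none of the marked motifs. These are matches of letters in a window and not evidence of binding.

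Dusp10 (NCBI gene 63953, chromosome 1, 184034461 to 184075636, plus strand) encodes MKP-5, which acts on JNK and p38. It had 38.01, 34.8 and 47.2 FPKM at 1 h, 26.0, 5.82 and 14.4 FPKM at 6 h, and 16.8, 15.3 and 11.1 FPKM in control. Every 1 h library was above every library of the other groups, while the 6 h libraries spread on both sides of control. Its log2 difference between 1 h and control was 1.42 (SE 0.416, 95% interval 0.49 to 2.36), a 2.78-fold ratio of means, with a limma adjusted p of 0.34. With only these 2 groups in the fit, which leaves out the wide 6 h spread, the SE was 0.188 and the adjusted p 0.032, and with the replicate numbers as a block in that same fit of 2 groups the adjusted p was 0.087. The difference between 6 h and 1 h was -1.52 (limma adjusted p 0.21), and without 6 h replicate 1 it was -1.99 with an adjusted p of 0.035. Leaving out no other single library gave a call of Dusp10 in either comparison.

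Dusp16 (NCBI gene 70686, chromosome 6, 134715468 to 134792628, minus strand) encodes MKP-7, a phosphatase of JNK and p38 that shuttles between nucleus and cytoplasm. Its libraries agreed closely at 1 h, with 7.16, 6.68 and 6.90 FPKM, against 5.05, 2.30 and 3.93 FPKM at 6 h and 5.29, 5.02 and 5.56 FPKM in control. The 1 h values were above both other groups, by a small margin. Its log2 difference was 0.33 between 1 h and control (SE 0.212, limma adjusted p 0.55) and -0.78 between 6 h and 1 h (SE 0.212, adjusted p 0.21). For 6 h against control it was -0.45 (adjusted p 0.88). An antisense gene, Gm36328, overlaps Dusp16, and since the strand setting is not given in the sources used here, reads of the 2 cannot be told apart.

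**Figure D2:**
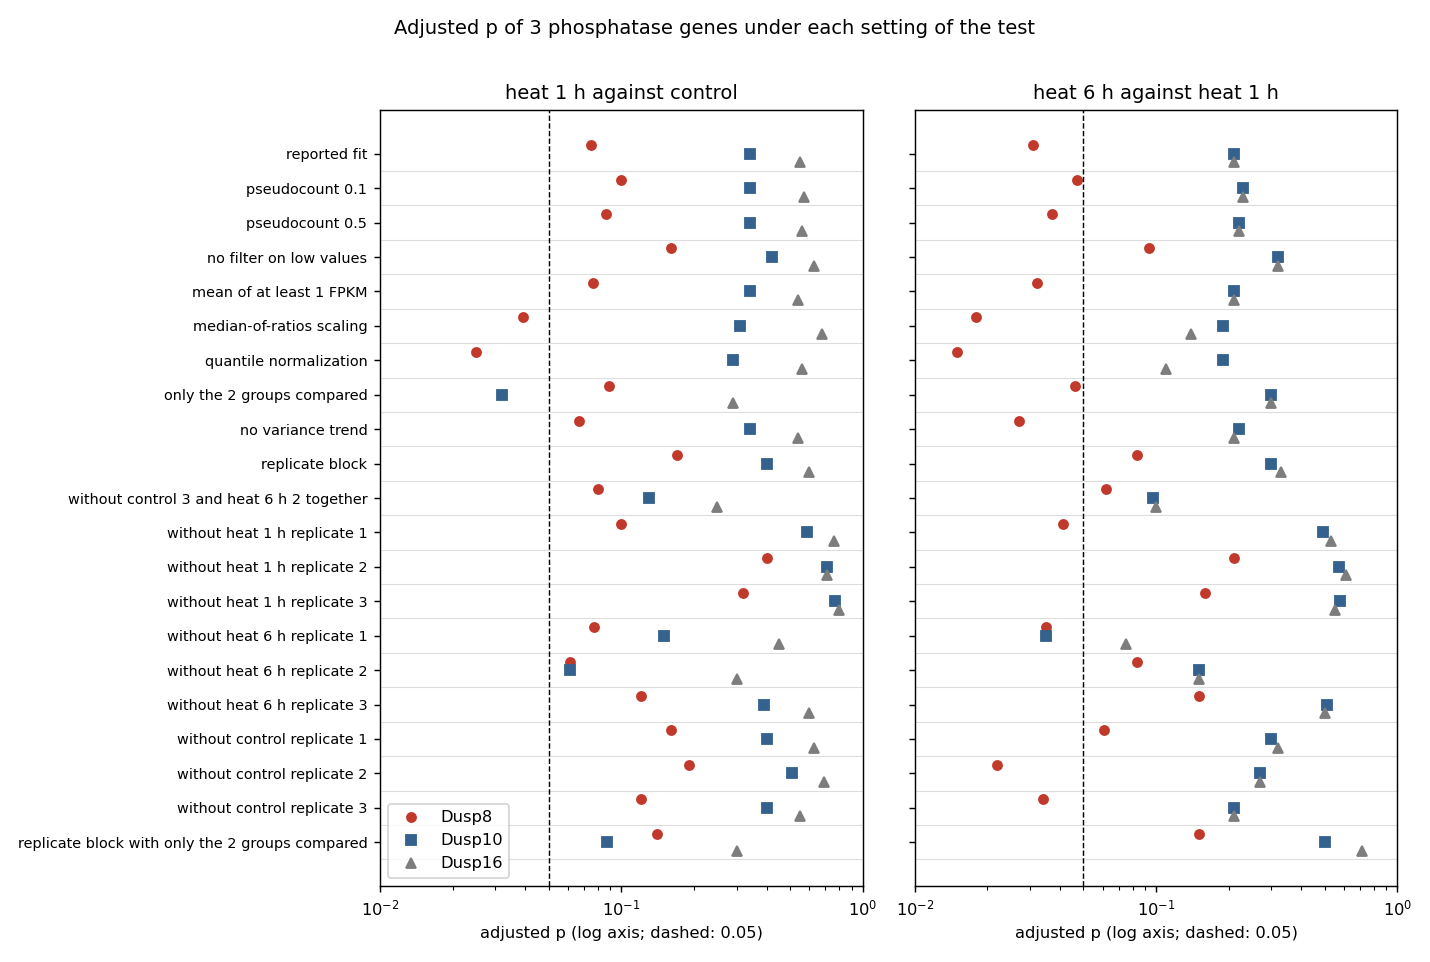
Limma adjusted p (log axis) of Dusp8, Dusp10 and Dusp16 in the reported fit and under each of 20 alternative settings, for 1 h against control on the left and 6 h against 1 h on the right; the dashed line is 0.05. Dusp8 lies left of the line in 11 of the 20 alternatives on the right and in 2 on the left, while Dusp10 crosses it once in each panel and Dusp16 in neither.

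Dusp1, of the nuclear inducible members, had the most abundant transcript of all members in every library. Dusp1 (NCBI gene 19252, chromosome 17, 26505591 to 26508472, minus strand) encodes MKP-1, and its human counterpart was first described as a gene induced by oxidative stress and heat shock. It had 219.8, 261 and 266 FPKM at 1 h, 230.02, 113 and 114 FPKM at 6 h, and 253, 120.3 and 92.5 FPKM in control. The groups overlapped through replicate 1 of the 6 h and control groups, which were as high as the 1 h libraries. Its log2 difference was 0.81 between 1 h and control (SE 0.381, limma adjusted p 0.49) and 0.02 between 6 h and control. Control replicate 1 also had the most Fos and Egr1 of its group, 131 and 347.7 FPKM, against 19.0 and 44.0 FPKM in control replicate 3. Without that replicate the log2 difference of Dusp1 at 1 h was 1.22, also not called.

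Dusp5 (NCBI gene 240672, chromosome 19, 53529318 to 53541322, plus strand) encodes a nuclear phosphatase specific for ERK. It had 42.8, 81.2 and 105 FPKM at 1 h, 75.5, 7.63 and 20.4 FPKM at 6 h, and 25.04, 18.5 and 15.0 FPKM in control. All 1 h libraries were above control, and the 6 h group held both the lowest value of the 9 and a value among the 1 h ones. Its log2 difference between 1 h and control was 1.85 (SE 0.668, 95% interval 0.35 to 3.35), a 3.91-fold ratio of means and the largest of the 9 members tested, with a limma adjusted p of 0.42. Between 6 h and 1 h it was -1.58 (adjusted p 0.41), and between 6 h and control 0.27. The transcript model in the table is 1155 bp long, 3 bp more than the coding sequence of 1152 bp, so its FPKM rests on coding length alone, and an antisense gene, AC137853.2, overlaps it.

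The promoters of Dusp1 and Dusp5 are shown as those of the most abundant member and of the member with the largest log2 difference. They are from RefSeq on GRCm38.p6, at chr17:26508423-26508722 on the minus strand and chr19:53528895-53529194 on the plus strand, and the start used for Dusp5 lies upstream of the one in the table. Capitals mark TGACGTCA, TGACG and, in Dusp5, the CArG box, which is the core of the serum response element, on either strand.
Dusp1: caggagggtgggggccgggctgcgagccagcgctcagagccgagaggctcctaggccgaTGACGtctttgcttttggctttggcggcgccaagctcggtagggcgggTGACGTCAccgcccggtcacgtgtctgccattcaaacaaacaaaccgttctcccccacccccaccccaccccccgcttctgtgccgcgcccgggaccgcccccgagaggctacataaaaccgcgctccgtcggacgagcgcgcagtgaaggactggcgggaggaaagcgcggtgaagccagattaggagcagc
Dusp5: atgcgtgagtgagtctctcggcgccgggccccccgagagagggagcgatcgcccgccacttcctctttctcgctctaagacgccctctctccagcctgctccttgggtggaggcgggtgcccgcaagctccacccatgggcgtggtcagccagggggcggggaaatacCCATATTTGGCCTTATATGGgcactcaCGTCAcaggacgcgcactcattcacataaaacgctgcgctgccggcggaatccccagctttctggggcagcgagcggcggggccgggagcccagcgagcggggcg

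Dusp1 holds TGACGTCA at -143 and a further TGACG at -191. Dusp5 holds adjoining CArG boxes that begin at -82 and -72, where 1.63% of all promoters and 1.33% of those of tested genes hold at least 1 and 6 promoters hold 2 or more, and a TGACG match at -55. Of the 9 members with a promoter in the table, all but Dusp4, 5 held TGACG, found in 20.8% of all promoters and 31.2% of those of tested genes (full elements contain it). The dyad TTCNNGAA, the AP-1 site TGANTCA and the TATA box TATAAA stood in 0 of the 9, in 8.52%, 7.81% and 13.6% of all promoters and in 6.85%, 5.15% and 6.95% of those of tested genes. The GC box GGGCGG stood in 8 of the 9, in 35.7% of all promoters and in 63.8% of those of tested genes. The E-box CACGTG stood in Dusp1 and Dusp2, in 7.15% of all promoters and in 10.2% of those of tested genes.

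**Figure D3:**
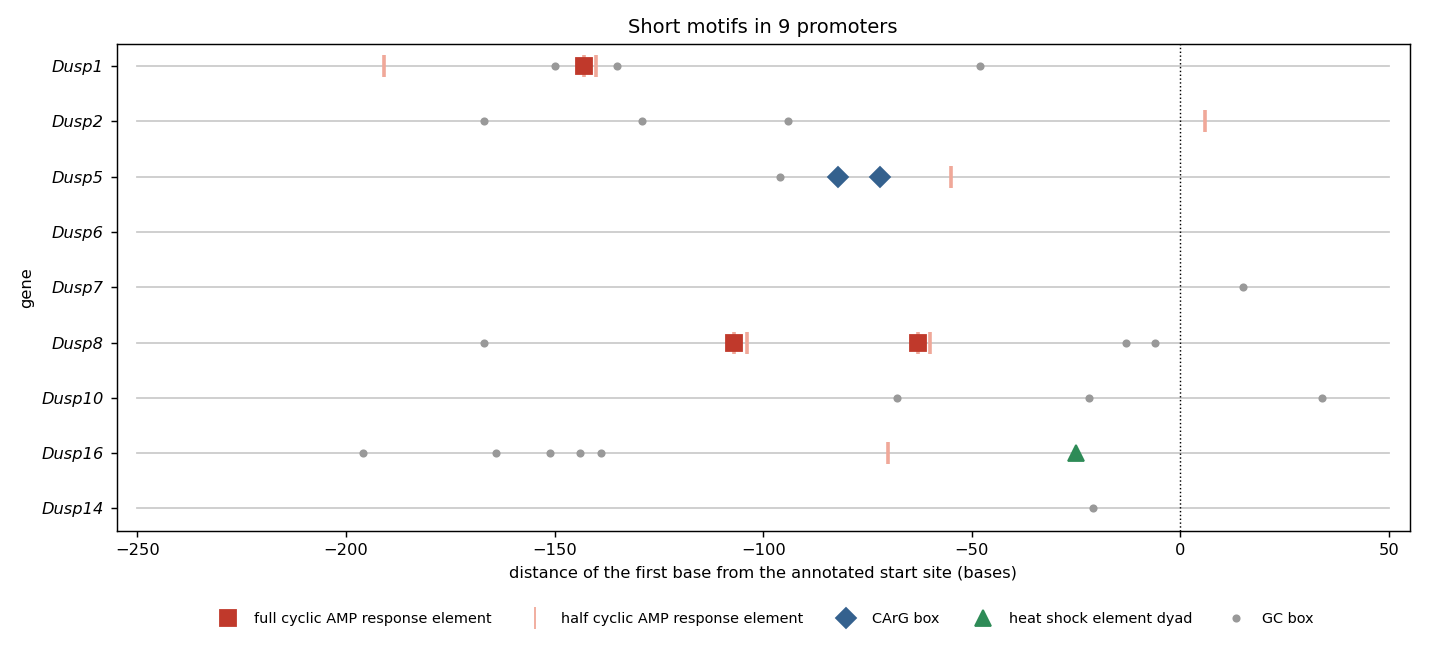
Distance in bases of the first base of each motif match from the annotated start site, for the 9 phosphatase genes with a RefSeq promoter (250 bases before to 50 after the start, dotted line). Dusp8 holds 2 full cyclic AMP response elements and Dusp1 holds 1, the CArG boxes stand in Dusp5 and the heat shock element dyad in Dusp16.

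Dusp4 (NCBI gene 319520, chromosome 8, 34807610 to 34819894, plus strand) encodes MKP-2, the nearest relative of MKP-1, and was the next most abundant member. It had 82.4, 127 and 101.4 FPKM at 1 h, 91.9, 54.5 and 94.1 FPKM at 6 h, and 62.3, 81.2 and 85.2 FPKM in control. The groups overlapped, and its log2 difference at 1 h was 0.43 (SE 0.248, limma adjusted p 0.52).

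Dusp2 (NCBI gene 13537, chromosome 2, 127336159 to 127338377, plus strand) encodes PAC1, best known from activated immune cells. It had 0.71, 1.03 and 2.96 FPKM at 1 h, 0.30, 0.13 and 0.23 FPKM at 6 h, and 0.29, 0.58 and 0.07 FPKM in control. All 1 h libraries were above the other 6, but the values rest on an estimated 22, 32 and 90 fragments at 1 h, 9, 4 and 7 at 6 h, and 9, 18 and 2 in control. An exact two-sided permutation test over the 3 libraries per group gave p = 0.1 both for 1 h against control and between 6 h and 1 h, the smallest p possible with 3 against 3, and p = 0.8 for 6 h against control. In the fit with no filter on low values its log2 difference at 1 h was 0.89 (SE 0.290, limma adjusted p 0.44). The 7 macrophage markers summed to 56.2, 168 and 227 FPKM in the 1 h libraries, 233, 205 and 43.5 FPKM at 6 h, and 55.9, 54.2 and 84.6 FPKM in control. Their part in the level of Dusp2 was not tested.

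The ERK-selective members of the cytoplasm showed no call. Dusp6 (NCBI gene 67603, chromosome 10, 99263231 to 99267489, plus strand) encodes MKP-3, a feedback inhibitor of growth factor signalling through ERK. It had 56.0, 97.01 and 101.3 FPKM at 1 h, 93.5, 29.1 and 54.3 FPKM at 6 h, and 72.2, 39.2 and 42.7 FPKM in control. The range at 1 h overlapped those at 6 h and in control, and the log2 difference at 1 h was 0.72 (SE 0.414, limma adjusted p 0.52). Dusp7 (NCBI gene 235584, chromosome 9, 106368632 to 106375724, plus strand) had 4.43, 3.95 and 2.95 FPKM at 1 h, 6.00, 3.95 and 5.51 FPKM at 6 h, and 4.79, 6.53 and 4.03 FPKM in control. It was 1 of 2 members with a lower mean at 1 h than in control, with a log2 difference of -0.35 (SE 0.216, limma adjusted p 0.54).

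Dusp14 (NCBI gene 56405, chromosome 11, 84048045 to 84068357, minus strand), known as a regulator of T cell receptor signalling, was the other. It had 1.42, 2.34 and 2.27 FPKM at 1 h, 2.92, 1.64 and 3.43 FPKM at 6 h, and 3.41, 2.09 and 3.36 FPKM in control. The groups overlapped, and its log2 difference at 1 h was -0.39 (SE 0.247, limma adjusted p 0.54).

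**Figure D4:**
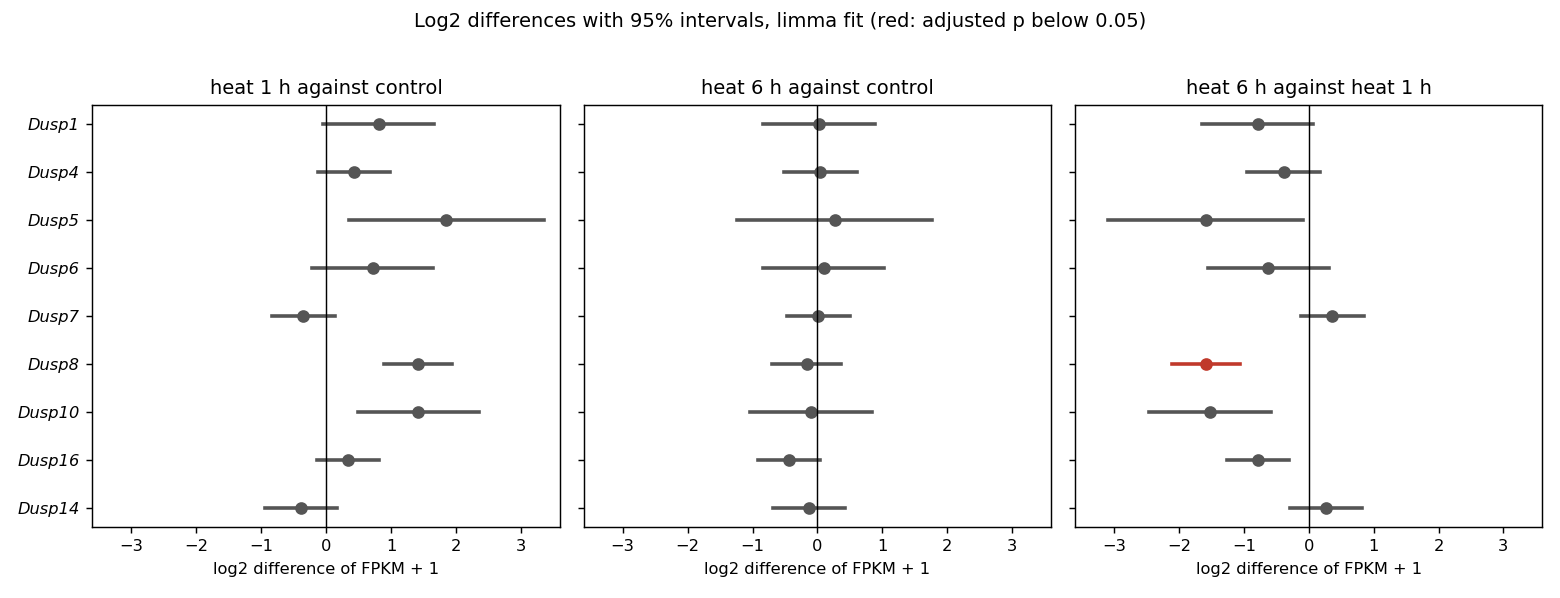
Log2 differences of FPKM + 1 with 95% intervals from the limma fit, for the 9 members tested, in 3 panels: 1 h against control, 6 h against control and 6 h against 1 h. The red interval, Dusp8 between 6 h and 1 h at -1.58, is the one with an adjusted p below 0.05, and all intervals between 6 h and control include 0.

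At 6 h against control, 0 of 9 members were called and 0 of 11460 genes, 0%, by limma, and at an unadjusted p below 0.05 the members also numbered 0, against 145 genes higher and 384 lower. For no member did the 6 h libraries lie wholly above control, as they did for 1.89% of all genes, or wholly below, as for 5.32%. The median log2 difference of the members was 0.01, against -0.06 for all genes. The widest interval was that of Dusp5, between -1.23 and 1.77, so differences of several fold were not detectable for it at 6 h. The sign of the difference turned on leaving out a single library for Dusp1, Dusp4, Dusp5, Dusp6, Dusp7, Dusp10 and Dusp14.

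Between 6 h and 1 h, Dusp8 was called. At an unadjusted p below 0.05, 4 members were lower and 0 higher, against 366 and 968 of the 11460 genes. For Dusp8, Dusp10 and Dusp16 all 6 h libraries lay below all 1 h libraries, as for 4.97% of all genes, and no member lay wholly above, as 15.2% did. The median log2 difference of the members was -0.78, against 0.095 for all genes. The comparisons share libraries, so a high value at 1 h enters both that of 1 h with control and that of 6 h with 1 h.

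The 6 h libraries differed from each other along the whole family. Replicate 2 was the lowest of its group for all 10 members, where 47.2% of all tested genes were lowest there, and replicate 1 was the highest for 8, where 35.8% of tested genes were. At 1 h, replicate 1 was the lowest for 7 members, against 31.7% of tested genes. In control, replicate 1 was the highest for 5, Dusp1, Dusp5, Dusp6, Dusp10 and Dusp14, against 21.8% of tested genes. Hspb1, a small heat shock protein named after its values were seen, had 2484, 202 and 804 FPKM in 6 h replicates 1, 2 and 3, in the same order of libraries as the summed phosphatases. Hspa1a, Hspa1b, Hsph1 and Hsp90aa1 had that order too, while other chaperones did not, among them Bag3 with 74.2, 70.2 and 78.2 FPKM. Apart from Hspa1a, these were also named after their values were seen. The part of this spread between libraries in the results was not tested.

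The levels of the 10 genes summed to 458, 624 and 644 FPKM at 1 h, 533, 220.0 and 312 FPKM at 6 h, and 445, 290.0 and 263 FPKM in control, means of 576 ± 102, 355 ± 161 and 333 ± 98.6 FPKM (SD, n = 3 each). The lowest sum at 1 h was above the highest control sum by a narrow margin. Dusp1, Dusp4, Dusp5 and Dusp6 made up between 87.5% and 92.9% of the sum in all 9 libraries. Dusp8, Dusp10 and Dusp16 together made up 11.1%, 8.09% and 9.78% of it at 1 h, 6.21%, 4.49% and 6.49% at 6 h, and 5.54%, 7.49% and 7.50% in control. The joint share of Dusp8, Dusp10 and Dusp16 at 1 h was above that in the other 6 libraries by a narrow margin, 8.09% against 7.50%.

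**Figure D5:**
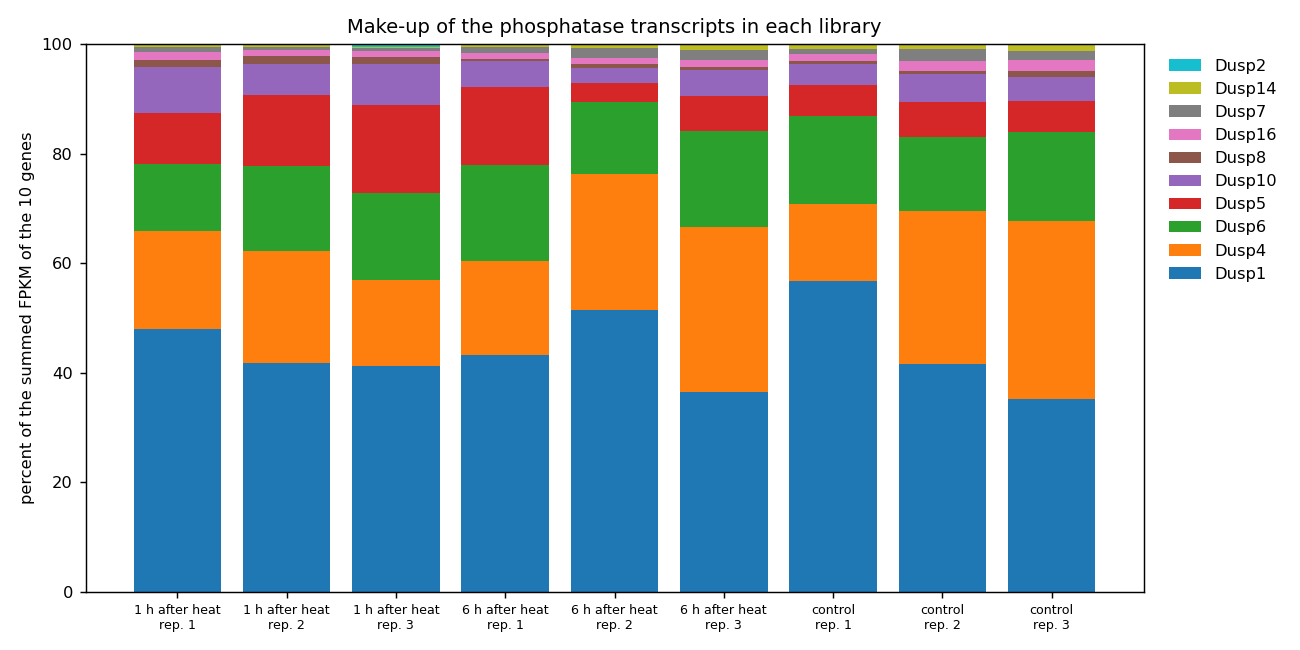
Percent of the summed FPKM of the 10 phosphatase genes that each gene makes up, in each of the 9 libraries (1 h after heat, 6 h after heat, control). Dusp1, Dusp4, Dusp6 and Dusp5, the lower 4 colours, make up between 87.5% and 92.9% of every bar, and Dusp8, Dusp10 and Dusp16 make up 8.09% to 11.1% at 1 h.

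By mean level at 1 h the members ran from Dusp1 (249 FPKM) over Dusp4 (104), Dusp6 (84.8), Dusp5 (76.2), Dusp10 (40.01), Dusp8 (7.85), Dusp16 (6.91), Dusp7 (3.78) and Dusp14 (2.01) to Dusp2 (1.57 FPKM). In control the order was Dusp1 (155 FPKM), Dusp4 (76.2), Dusp6 (51.3), Dusp5 (19.5), Dusp10 (14.4), Dusp16 (5.29), Dusp7 (5.12), Dusp14 (2.95), Dusp8 (2.34) and Dusp2 (0.31 FPKM). Dusp8 was the ninth in control and the sixth at 1 h, while the first 5 places were the same. The ranges of Dusp4 and Dusp6, Dusp5 and Dusp10, Dusp16 and Dusp7, and Dusp14 and Dusp8 overlapped in control, so their order there is not larger than the spread between libraries. At 1 h the range of Dusp8 (5.64 to 9.02 FPKM) enclosed that of Dusp16 (6.68 to 7.16 FPKM), and the order of these neighbours is likewise within the spread. The 1 h ranges of Dusp4 and Dusp6, Dusp6 and Dusp5, Dusp5 and Dusp10, and Dusp14 and Dusp2 overlapped too, so their order is also within it.

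In the authors' deposited table, which compares group means with DEGseq, 4 of the 10 members passed a q of at most 0.001 with at least a 2-fold change at 1 h against control, where 7.84% of genes did: Dusp2, Dusp5, Dusp8 and Dusp10, with log2 fold changes of 2.30, 1.96, 1.75 and 1.47. For 6 h against control the authors' deposited table had 0 of the 10 past that rule, where 6.45% of genes were. For 6 h against 1 h the authors' deposited table had the same 4 lower, with log2 fold changes of -2.85, -1.16, -2.04 and -1.39, where 4.50% of genes passed. The libraries behind those means overlapped for Dusp5 in the last comparison, with 7.63 to 75.5 FPKM at 6 h and 42.8 to 105 FPKM at 1 h.

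The kinases that these phosphatases act on showed no call. Of 12 MAP kinases tested 0 were called in any of the 3 comparisons, with 2 lower at 1 h at an unadjusted p below 0.05. Their median log2 difference at 1 h was -0.22, against -0.168 for all genes. The 1 h libraries lay wholly below control for 6 of the 12 and wholly above for 0, where 21.4% and 4.49% of all genes did. Mapk3, which encodes ERK1, averaged 74.7 ± 2.6 FPKM at 1 h, 79.8 ± 16.2 FPKM at 6 h and 93.4 ± 23.2 FPKM in control (SD, n = 3). Likewise 0 were called of 26 MAP2 and MAP3 kinases, 10 kinases activated by MAP kinases, 8 scaffolds, 17 growth factor receptors and RAS genes, and 8 other phosphatases of MAP kinases, with medians at 1 h of -0.23, -0.21, -0.11, -0.05 and -0.14. At an unadjusted p below 0.05 these lists held 1, 1, 0, 0 and 0 genes higher at 1 h and 3, 1, 0, 3 and 0 lower, and these counts stand beside the 316 higher and 922 lower of all 11460 genes. Wholly below control at 1 h were 11, 3, 1, 5 and 2 genes of these lists, and wholly above 2, 1, 0, 0 and 0. Of 16 other dual-specificity phosphatases 0 were called, and 1 was lower at 1 h at an unadjusted p below 0.05. Of the 16, 1 had a log2 difference above 0, where 23.8% of all genes tested did, and the median was -0.27. Dusp3, a small phosphatase of ERK and JNK and the most abundant of them, stood at 21.6, 24.5 and 28.3 FPKM at 1 h, 25.8, 22.3 and 31.2 FPKM at 6 h, and 27.0, 32.3 and 44.0 FPKM in control.

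Other genes transcribed in response to MAP kinase signals were set beside the members. Of 20 immediate early genes, 1 was called at 1 h against control, Atf3, a stress-induced transcription factor, with 135 ± 23 FPKM at 1 h and 6.37 ± 3.78 FPKM in control (SD, n = 3; log2 difference 4.37, limma adjusted p 0.004). The list's median was 1.63, and 15 of 20 had no overlap with control upward, as had 4.49% of all genes. Between 6 h and 1 h, Atf3 and Jun, a subunit of AP-1 and a substrate of JNK, were called as lower, with log2 differences of -4.43 and -2.23 (limma adjusted p 0.0044 and 0.042). Of 13 ERK feedback inhibitors and ETS targets 0 were called, with 3 higher and 0 lower at 1 h at an unadjusted p below 0.05. Their median log2 difference at 1 h was -0.235, with 4 above 0 and 9 below. The 1 h libraries lay wholly above control for 3 of them and wholly below for 3, where 4.49% and 21.4% of all genes did. The most abundant were Errfi1, an inhibitor of the EGF receptor, and Phlda1. Errfi1 had 581, 577 and 607 FPKM at 1 h, 623, 181 and 258 FPKM at 6 h, and 329, 212 and 88.7 FPKM in control. Phlda1 had 498, 579 and 646 FPKM at 1 h, 146, 31.3 and 93.5 FPKM at 6 h, and 145, 100.7 and 50.6 FPKM in control, with a log2 difference of 2.65 at 1 h (limma adjusted p 0.13).

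The genes whose centred log2 profile over the 9 libraries was nearest to that of Dusp8 were Swt1, Zkscan5 and Herpud1, with root mean square differences of 0.223, 0.244 and 0.276. The median over all genes tested was 0.851, and genes picked as the nearest lie below it by that choice. Herpud1, which acts in the degradation of endoplasmic reticulum proteins, averaged 99.0 FPKM at 1 h, 25.3 FPKM at 6 h and 32.6 FPKM in control.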

How the data were processed

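RNA of 9 libraries was measured by RNA-seq. Total RNA was taken up in TRNzol and libraries followed BGI's standard protocol, per the labels' protocols. The values deposited are FPKM, per the file headers. HISAT2 2.0.4, Bowtie2 2.2.5, RSEM 1.2.12 and mm10 are listed, without their roles, per the submitters' processing notes. The authors also deposited log2 fold changes of group means, p-values and q-values, made with DEGseq per the file headers. FPKM is a share of a library, so a strong rise of some genes lowers the rest.

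Genes that reached 1 FPKM in 3 or more of the 9 libraries were tested with limma 3.58.1 (R 4.3.3) on log2(FPKM + 1), a scale that understates changes of low genes, with a variance trend, all 9 libraries, 3 group means and no replicate block. Tests were two-sided with Benjamini-Hochberg adjustment over 11460 genes and a threshold of 0.05, and were checked on simulated data. Depth was estimated from values of transcripts of 400 to 1200 bp, of which 89.9% to 92.6% lay within 0.2 of a whole fragment. Evenly spread values would give 40%, but the depth was fitted to these same values, so 40% is not the chance level of the fit. No count test was run. The single-gene permutation test used SciPy 1.17.1. Motifs were searched on both strands, the CArG box by its 10-base pattern.

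Same-numbered 1 h and control libraries deviated together (r over genes 0.19, 0.15 and 0.26), but so did 1 h replicate 1 and control replicate 2 (0.17). For 6 h and control, r of the same numbers was -0.18, 0.04 and 0.01. The labels do not say whether the numbers pair libraries. The reported fit has no replicate block, and adding the block left the count of called members at 1 h against control at 0. The members and lists were chosen with earlier results of these data known. Genes outside the family were named by rule: up to 4 called genes of a list with the largest change, otherwise its 2 genes of highest mean, the 3 profiles nearest to a called member, and 2 chaperones. Several of these are given only within the counts of their lists, and 1 is not reported here by name. Fos and Egr1 beside Dusp1, and the Sertoli markers Cldn11, Wt1, Sox9, Inha and Gata4, were named after their values were seen.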

Additional observations from a re-analysis of the deposited data

Results flagged for a closer look

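Dusp8 differed between the times after heat. Its level at 6 h was lower than at 1 h by a log2 difference of -1.58 in a direct test (limma adjusted p 0.031), while at 6 h against control it was -0.17 (adjusted p 0.91). The 3 libraries at 6 h lay between 1.75 and 2.09 FPKM, and those at 1 h between 5.64 and 9.02 FPKM, so all 3 were lower.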

How the results depend on the processing

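Of 27 results for single members, 15 kept direction and side of the threshold under all 20 alternatives. At 1 h against control the count of called members was 0, and 1 with median-of-ratios scaling, with quantile normalization (both Dusp8) or with only the 2 groups compared (Dusp10), and again 0 with the replicate block and only these 2 groups (Dusp10 adjusted p 0.087), an alternative chosen after seeing the data. At 6 h against 1 h it was 1, and 0 with no filter on low values, with the replicate block, in which Dusp8 had an adjusted p of 0.083, without control replicate 3 and 6 h replicate 2 together (adjusted p 0.062), and with the block and only the 2 groups (adjusted p 0.15). Leaving out 1 library gave 0 to 2. In that comparison same-numbered libraries did not deviate together (r of -0.27, -0.10 and -0.35). These r are of deviations from group means of few libraries and cannot decide whether the numbers pair libraries, which the labels do not say. Fewer libraries did not always give a larger SE. With only the 2 groups compared, the SE of Dusp8 at 6 h against 1 h was 0.203, against 0.235 in the reported fit. The cause of the changes between settings was not tested. All genes called numbered 8 to 53 at 1 h (18 in the reported fit), 0 to 25 at 6 h (0; 25 without 6 h replicate 1) and 8 to 104 between 6 h and 1 h (32; 104 without 6 h replicate 1).

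Signs turned at 6 h against control, with no call. Without control replicate 3 and 6 h replicate 2 the log2 differences were -0.11 for Dusp1, 0.024 for Dusp8, 0.26 for Dusp10 and 0.18 for Dusp14, and quantile normalization gave 0.003 for Dusp10. Leaving out 1 library gave -0.31 to 0.44 for Dusp1, -0.094 to 0.296 for Dusp4, -0.56 to 1.011 for Dusp5, -0.31 to 0.52 for Dusp6, -0.12 to 0.17 for Dusp7, -0.57 to 0.42 for Dusp10 and -0.29 to 0.10 for Dusp14. Depth limits Dusp2 most.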

Other observations

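The pentamer ATTTA, a core of AU-rich elements that are known to shorten the life of many inducible mRNAs, was counted in the longest annotated 3′ UTR of each member (GENCODE M21). Dusp1 held 4 in 690 bases and Dusp2 held 4 in 581 bases, or 5.80 and 6.88 per kb, densities reached by 2.66% and 1.46% of the 10409 tested genes with such a UTR of at least 200 bases, whose median was 1.33 per kb. Dusp8 held 5 at 2.11 per kb and Dusp10 held 3 at 2.70 per kb, reached by 31.8% and 21.4% of those genes. Dusp4 held 2, Dusp16 held 3, and Dusp5 and Dusp6 held 1 each, or 1.80, 1.24, 0.902 and 0.84 per kb, and Dusp7 and Dusp14 held 0. No relation between these counts and the differences was tested.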
